A study of Zea mays with 24 samples.

Results

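Photorespiration and the metabolism of serine, glycine and cysteine were followed through 33 maize transcripts. The members were all entries that the study's annotation lists under photorespiration (20) and under serine, glycine and cysteine metabolism (18), of which 5 stand under both headings. Within these headings every entry was taken, by identifier and description only. The headings themselves were chosen with earlier results of these data known. All 33 were found among the 41780 transcript probes of the array. The list gives 1 probe for each transcript, a representative where the authors had several identifiers for it. Other probes of the same transcripts were not looked up. The descriptions place them in 13 enzyme steps.

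Levels were measured in source leaf lamina of the inbred line B73 in 3 independent experiments, each with 4 biological replicates of stressed plants and 4 of control plants, 24 arrays in all. Low T plants had days of 28°C and nights of 4°C, their control T had nights of 20°C, and leaf 5 was taken from both at day 20. Low N plants received 0.15 mM KNO3 in place of the 15 mM of control N, and low P plants received 0.1 mM KH2PO4 in place of the 0.5 mM of control P. In these nutrient experiments leaf 6 was taken at day 30 and all nights were at 20°C. All groups grew in nutrient-poor peat soil with modified Hoagland solution, low T and control T with the full strength of it, and the nutrient experiments used another growth chamber and other light intensities than the temperature experiment. Leaf, age and chamber therefore differ between the temperature experiment and the others, and each stress was set only against its own control. Low T and control T plants stood in separate chambers, so that chamber and night temperature cannot be told apart.

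Photorespiration recovers the carbon of phosphoglycolate, which Rubisco forms when it fixes oxygen in place of carbon dioxide. Phosphoglycolate is dephosphorylated in the chloroplast, oxidized to glyoxylate in the peroxisome with release of hydrogen peroxide, and aminated to glycine. In the mitochondrion glycine decarboxylase and serine hydroxymethyltransferase turn glycine into serine with release of carbon dioxide and ammonium, and serine returns through hydroxypyruvate and glycerate to the Calvin cycle. In a C4 leaf such as that of maize the flux is small, since the C4 shuttle concentrates carbon dioxide in the bundle sheath, where glycine decarboxylase is located. Serine is also made from 3-phosphoglycerate by the phosphorylated pathway of the plastid, and serine acetyltransferase leads from serine to cysteine, the entry of reduced sulfur into metabolism.

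A level below is the log2 intensity of a probe minus the 75th percentile of its array, so that a difference of 1 is a fold change of 2. Levels of 1 transcript were compared between groups, and never between transcripts, because probes differ in their response. Of all probes, 31507 were well above background on the 4 arrays of at least 1 group and were tested, all 33 members among them, and 32 members were well above background on all 24 arrays. The exception, a glycolate oxidase, missed this on 1 low N array. In what follows a transcript rose or fell if its Benjamini-Hochberg adjusted p over all tested probes was under 0.05 in limma, and it was called if its fold change was also over 2. Leaf tissue cannot show whether fewer cells of a type or less RNA per cell lay behind a lower level. Transcripts of photosystem I (15 of 15), photosystem II (11 of 11) and the C4 shuttle (18 of 18) were well above background on all 24 arrays, as in a green C4 leaf, and of 5 listed senescence markers 3 were. Per array, 25780 to 36966 probes were well above background, 28075 to 36966 in low P leaves and 29600 to 31363 in control P.

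Under low P more photorespiratory transcripts fell than rose. Of the 20, 11 fell (55%) and 1 rose, whereas 20.2% of all tested transcripts fell and 20.9% rose, and the median log2 change was -0.47 against 0.03 over all tested transcripts. The transcripts that fell were 1 phosphoglycolate phosphatase, 1 glycolate oxidase, 1 catalase at the limit of the test and both serine-glyoxylate aminotransferases. With them fell 3 of 4 transcripts of glycine decarboxylase (the P-protein and both H-proteins), 2 of 4 serine hydroxymethyltransferases and hydroxypyruvate reductase. Among the 18 transcripts of serine, glycine and cysteine metabolism 4 fell and 2 rose (22.2% and 11.1%). A phosphoglycerate dehydrogenase that rose 4.40-fold was 1 of the 2. The 2 serine hydroxymethyltransferases and hydroxypyruvate reductase stand under both headings and are counted among the 4 as well as among the 11. Falls under low P were not particular to these lists. They took in 38.9% of the C4 shuttle, 25.9% of the Calvin cycle and 42.9% of the glutamine synthetase and glutamate synthase cycle. The 4 arrays of control P shared a slide and those of low P shared a different one, and slide and phosphate supply cannot be told apart.

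These falls are relative to the other transcripts of the leaf. When the arrays were scaled to the spiked control RNAs, the median log2 change of all tested transcripts under low P moved from 0.03 to 0.55, 2 photorespiratory transcripts fell (10%, against 2.26% of all tested) and 2 rose, and their median turned to 0.05. The 2 that fell were the serine-glyoxylate aminotransferases, and no other photorespiratory fall kept an adjusted p under 0.05. The photorespiratory median thus lay below that of all transcripts under both scalings, but its sign was not the same. The corresponding shift of all transcripts was from -0.04 to 0.54 under low N and from -0.07 to 0.15 under low T. The photorespiratory median under these stresses turned too, from -0.15 to 0.42 and from -0.17 to 0.05. With a background correction by normexp, 5 photorespiratory transcripts fell under low P (25%, against 8.37% of all tested) and 0 rose. Their median was then -0.32 against -0.22 over all tested transcripts, a narrower gap than in the main setting. With quantile normalization 10 fell under low P (50%, against 25.3%), and the medians were -0.45 and -0.10.

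Under low T, 3 of the 20 photorespiratory transcripts rose and 3 fell (15% each), near the shares of all tested transcripts (15.2% and 15.8%). Of the serine acetyltransferases 3 of 4 fell, and of the enzymes related to cystathionine beta-synthase 1 of 3. Of all 33 members 6 rose and 7 fell (18.2% and 21.2%), against 15.2% and 15.8% of all tested transcripts. The members called were 1 higher, a serine hydroxymethyltransferase, and 4 lower, 3 of them serine acetyltransferases and the fourth a catalase. Over all tested transcripts 7.25% were called higher and 7.11% lower. Of the 4 phosphoglycerate dehydrogenases 3 rose. Low T and control T shared their slides, and with the slide as a block 9 members rose and 9 fell.

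Under low N 2 of the 33 members rose and 5 fell (6.06% and 15.2%), against 5.34% and 5.82% of all tested transcripts. A phosphoglycerate dehydrogenase was called higher, and a catalase and 2 serine acetyltransferases were called lower, while 2.68% and 3.14% of all tested transcripts were called in these directions. Only the 2 serine acetyltransferases kept an adjusted p under 0.05 whichever single array of the 8 was left out. Without low N replicate 1 no member rose and 2 fell, and 0 to 1 rose and 2 to 4 fell over all 8 omissions. The 8 arrays lay on 4 slides, of which only 1 held both groups, with 2 arrays of low N and 1 of control N. Slide and nitrate supply can therefore be told apart only in part. With the slide as a random block 2 members rose, 9 fell and 2 were called.

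**Figure D1:**
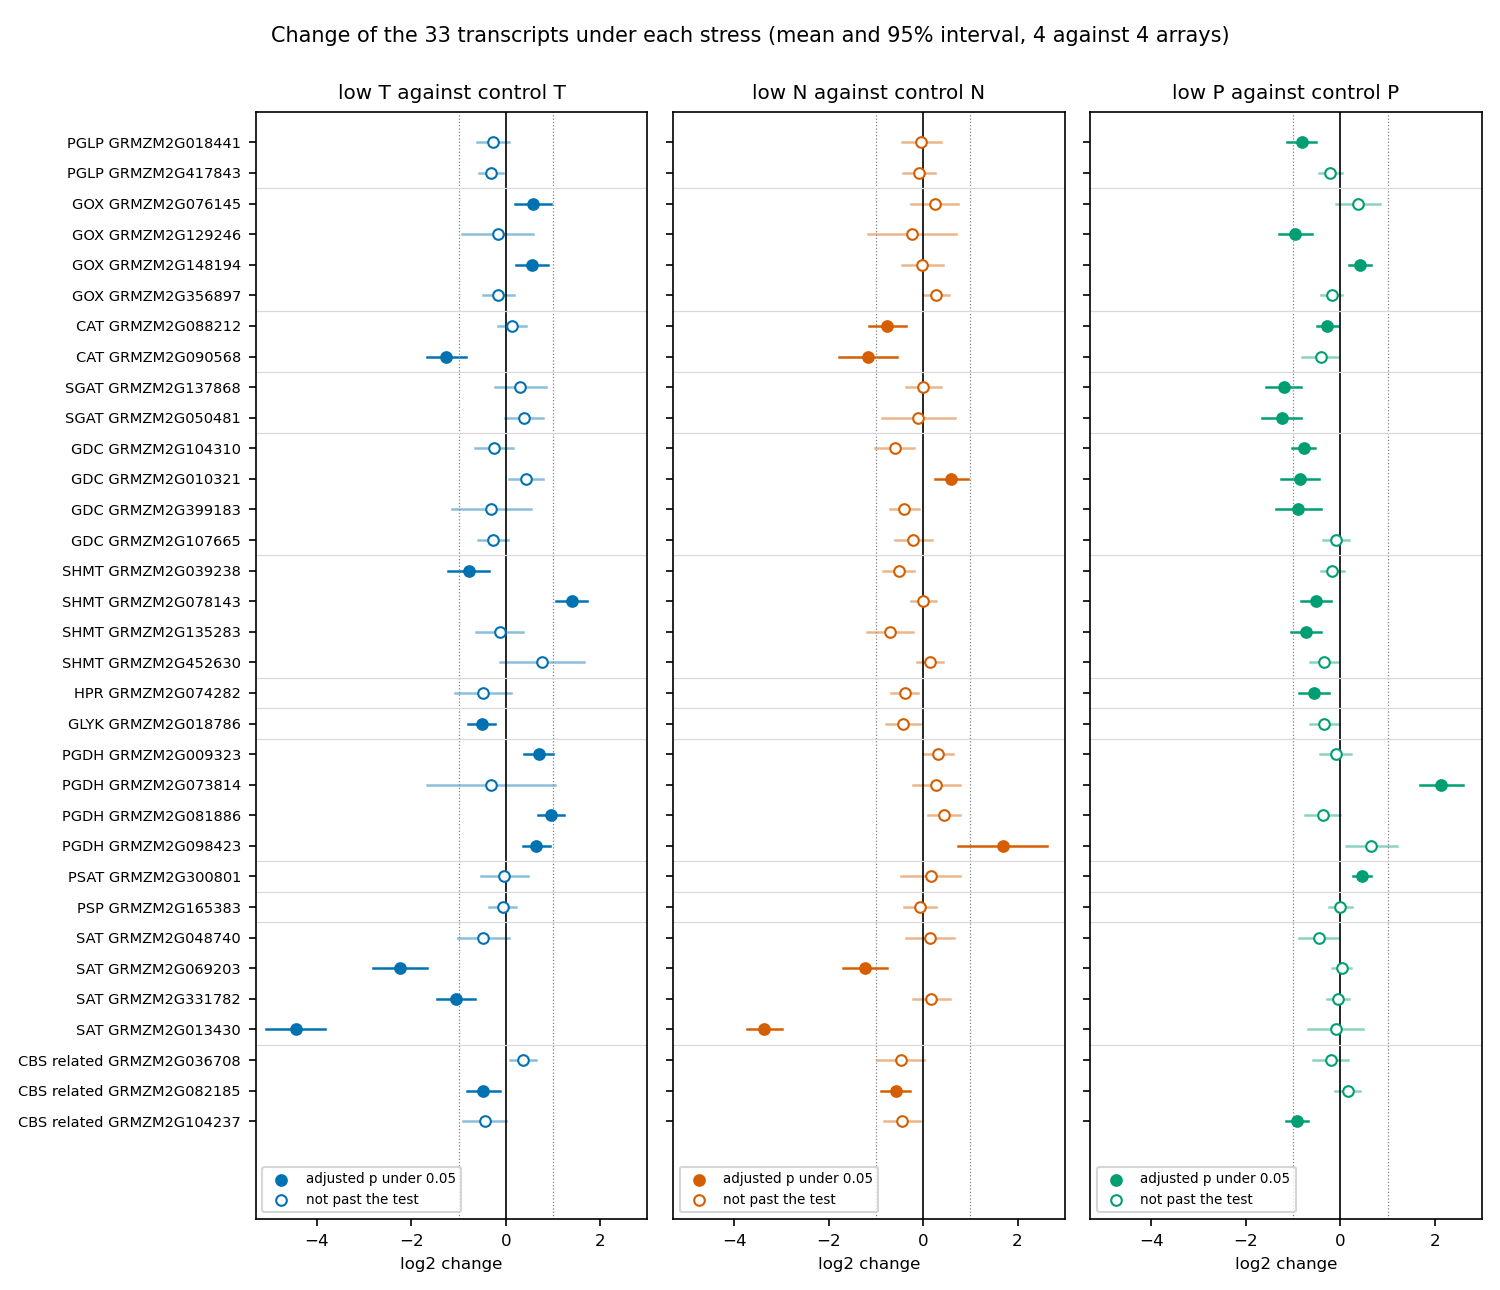
Log2 change of each of the 33 transcripts under low T, low N and low P against its own control (x axis, 0 meaning no change), with transcripts ordered by enzyme step on the y axis. Points are differences of group means with 95% intervals from limma, filled where the adjusted p was under 0.05, and dotted lines mark a fold change of 2; the filled points of GRMZM2G013430 lie at -4.45 under low T and -3.36 under low N, while most filled low P points lie to the left of 0 in the upper, photorespiratory rows. With spike-in scaling the low P points move to the right, and 14 of the 33 turn from below to above 0, of which catalase GRMZM2G088212 (-0.27 to 0.24) is the filled one.

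No member passed the test in the same direction under all 3 stresses, although with spike-in scaling phosphoglycerate dehydrogenase GRMZM2G098423 did, and 7 passed under none. The most common pattern, in 9 members of which 8 were photorespiratory, was a fall under low P without passing the test under low T or low N. The low P change differed from both other stresses for 2 of the 9, the aminotransferases, and from low N for 1, phosphoglycolate phosphatase GRMZM2G018441, while for the remaining 6 neither interaction passed the test. A further 4 members fell under low T and low N and did not pass the test under low P, namely a catalase, 2 serine acetyltransferases and 1 enzyme related to cystathionine beta-synthase. Levels of stressed and control arrays did not overlap for 15 members (45.5%) under each stress, where 35.3% of all tested transcripts did not overlap under low T, 21.4% under low N and 42.5% under low P.

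Phosphoglycolate phosphatase removes the phosphate of phosphoglycolate and so opens the pathway. The levels of GRMZM2G018441 under low P were 3.90, 3.65, 4.30 and 3.96 and those in control P 4.83, 4.77, 4.81 and 4.67. Every low P array lay below every control array, and the transcript fell by 0.82 on the log2 scale (1.77-fold, adjusted p = 0.0022). With spike-in scaling the low P change was -0.31 and did not pass the test (adjusted p = 0.214). In the temperature experiment GRMZM2G018441 had levels of 5.38, 5.09, 4.80 and 4.93 under low T against 5.45, 5.31, 5.28 and 5.25 in control T. In the nitrogen experiment they were 4.74, 4.76, 4.53 and 4.47 under low N against 5.03, 4.81, 4.39 and 4.40 in control N, and in neither did the groups separate. Its log2 change was -0.27 (adjusted p = 0.2) under low T and -0.03 (adjusted p = 0.926) under low N, and the low P change lay below that of low N (difference -0.79, adjusted p = 0.0146 of the interaction). The second phosphatase, GRMZM2G417843, did not pass the test under any stress, with changes of -0.32 (adjusted p = 0.0615, or 0.0273 with slides as a block) under low T, -0.09 under low N and -0.21 under low P.

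Glycolate oxidase forms glyoxylate and hydrogen peroxide. Its 4 listed transcripts went different ways. GRMZM2G129246, for which the reference table has the synonym go1, was the dimmest, with levels of -4.31, -4.52, -4.11 and -4.10 under low P and -3.62, -3.16, -3.09 and -3.38 in control P. The groups did not overlap and it fell 1.93-fold (log2 change -0.95, 95% interval -1.29 to -0.61, adjusted p = 0.00168), but with a background correction by normexp the adjusted p was 0.143. Under low T the same transcript differed in sign between the slides, by 0.56 on the first and -0.91 on the second, and did not pass the test (adjusted p = 0.71). The levels were -3.03, -2.57, -4.07 and -3.71 under low T against -3.17, -3.55, -3.12 and -2.84 in control T. Under nitrogen shortage GRMZM2G129246 varied as widely, with -3.69, -3.64, -4.38 and -2.61 under low N against -3.55, -3.51, -2.50 and -3.81 in control N, and the change of -0.24 did not pass the test (adjusted p = 0.747).

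GRMZM2G148194, annotated as the peroxisomal hydroxy-acid oxidase GLO4, rose under low T (0.55, adjusted p = 0.0245) and under low P (0.42, adjusted p = 0.0119), while its change under low N was -0.02. GRMZM2G076145 rose under low T (0.57, adjusted p = 0.0323), and its changes of 0.24 under low N and 0.37 under low P did not pass the test (adjusted p = 0.517 and 0.179) nor differ from that of low T past it (adjusted p = 0.457 and 0.61). With spike-in scaling it also rose under low P (0.88, adjusted p = 0.0263). Leaving out 1 array took these low T calls away in 4 and 5 of 8 cases, with adjusted p up to 0.0676 and 0.0866. The glycolate oxidase-like GRMZM2G356897 did not pass the test under any stress, although its low N levels (1.32 to 1.66) lay above those of control N (1.17 to 1.28).

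Catalase degrades the hydrogen peroxide of the oxidase step. GRMZM2G090568, catalase isozyme 2 (cat2), had low T levels of 3.53, 3.39, 3.05 and 3.27 and control T levels of 4.30, 4.43, 4.59 and 4.97. Under low N the levels were 3.27, 3.58, 2.84 and 3.02 against 4.71, 4.53, 3.64 and 4.50 in control N. In both experiments every stressed array lay below every control array, by a narrow margin under low N. It fell 2.40-fold under low T (log2 change -1.26, 95% interval -1.68 to -0.85, adjusted p = 0.00182) and 2.24-fold under low N (-1.17, -1.77 to -0.56, adjusted p = 0.0283). The low N call was lost in 6 of 8 omissions of 1 array (adjusted p up to 0.0724), and with the slide as a random block its log2 change was -0.90. Under low P the levels were 3.94, 4.02, 4.15 and 4.26 against 4.21, 4.66, 4.93 and 4.24, which overlapped (-0.42, adjusted p = 0.0861), and the low P change differed from that of low T by 0.84 (adjusted p = 0.0357). The other catalase, GRMZM2G088212 (isozyme B, cat1), fell under low N (-0.76, adjusted p = 0.0278) and changed by 0.14 under low T (adjusted p = 0.455), a difference between the stresses of 0.90 (adjusted p = 0.0016). Its low P change of -0.27 was at the limit of the test (adjusted p = 0.04999) and turned to 0.24 with spike-in scaling. This low P fall was lost in 7 of 8 omissions of 1 array (adjusted p up to 0.121).

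Serine-glyoxylate aminotransferase passes the amino group of serine to glyoxylate in the peroxisome and so makes both glycine and hydroxypyruvate. GRMZM2G137868 had low P levels of 3.15, 3.10, 3.12 and 3.15 and control P levels of 4.02, 4.27, 4.23 and 4.80. GRMZM2G050481 had low P levels of -1.34, -1.47, -1.48 and -1.80 and control P levels of -0.67, -0.36, -0.26 and 0.14. For both transcripts the low P arrays were far below the controls. GRMZM2G137868 fell 2.30-fold (-1.20, 95% interval -1.56 to -0.84, adjusted p = 0.000736) and GRMZM2G050481 fell 2.36-fold (-1.24, -1.65 to -0.83, adjusted p = 0.00119). They were the only members called lower under low P, where 3.01% of all tested transcripts were called lower and 8.22% higher, and with spike-in scaling their changes were -0.69 and -0.72. For GRMZM2G137868 the other experiments gave 4.43, 4.84, 3.80 and 4.17 under low T against 4.21, 4.24, 3.81 and 3.77 in control T, and 4.64, 4.71, 4.05 and 4.47 under low N against 4.48, 4.41, 4.41 and 4.54 in control N. For GRMZM2G050481 they gave -0.04, 0.35, -0.47 and -0.03 under low T against -0.40, -0.45, -0.37 and -0.53 in control T, and 0.29, 0.37, -1.11 and -0.52 under low N against 0.10, 0.07, -0.25 and -0.49 in control N. Stressed and control arrays overlapped in each of these.

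The same transcripts did not pass the test under low T (0.30 and 0.39, adjusted p = 0.352 and 0.127) or low N (0.01 and -0.10, adjusted p = 0.987 and 0.884). The low P change lay below the low T change by 1.50 and 1.63 (adjusted p = 0.000222 and 0.0014) and below the low N change by 1.21 and 1.14 (adjusted p = 0.00386 and 0.0313). Over the 24 arrays the levels of both transcripts correlated at r = 0.9, and the deviations from their group means at r = 0.713. These are descriptions over arrays that share slides and groups, and whether probes of related genes bind each other's transcripts was not tested.

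**Figure D2:**
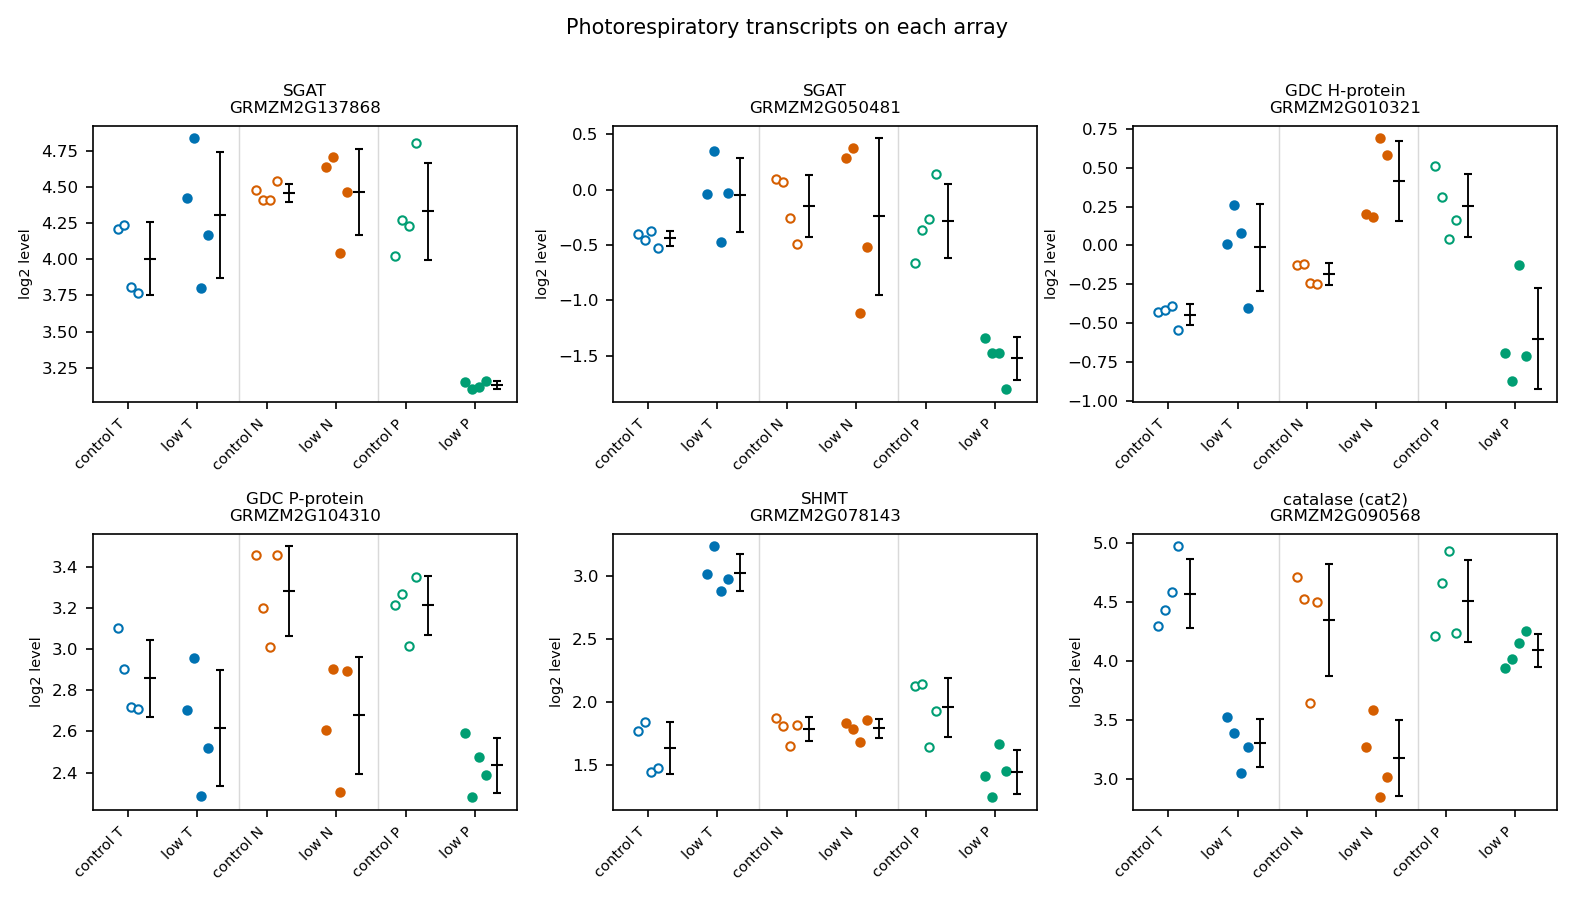
Level of 6 photorespiratory transcripts (log2 intensity minus the 75th percentile of the array, y axis; the range differs between panels) on every array of the 6 groups (x axis; open circles control, filled circles stressed), with the mean and SD of each group beside the points. Both aminotransferases lie at their lowest in the low P group, serine hydroxymethyltransferase GRMZM2G078143 lies between 2.88 and 3.24 under low T and at most at 2.14 elsewhere, and cat2 is low under low T and low N. With spike-in scaling the low P change of cat2 turns from -0.42 to 0.09 and that of GRMZM2G078143 is -0.0024.

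The glycine decarboxylase complex of the mitochondrion consists of P-, H-, T- and L-proteins, of which the list holds 1 P-protein, 2 H-proteins and 1 T-protein. The P-protein, which decarboxylates glycine, is represented by GRMZM2G104310, whose low P levels (2.28 to 2.59) lay below those of control P (3.02 to 3.35). It fell 1.71-fold (adjusted p = 0.000864) under low P, while with spike-in scaling the change was -0.26 (adjusted p = 0.319). Under low N its levels (2.31 to 2.90) also lay below those of the controls (3.01 to 3.46) without passing the test (-0.60, adjusted p = 0.0716; adjusted p = 0.0478 with the replicate number as a block).

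The H-proteins carry the aminomethyl group between the other subunits. GRMZM2G010321 had levels of -0.69, -0.87, -0.12 and -0.71 under low P against 0.51, 0.31, 0.04 and 0.16 in control P, and of 0.21, 0.19, 0.69 and 0.59 under low N against -0.12, -0.12, -0.24 and -0.25 in control N. It was lower on every low P array and higher on every low N array than on the respective controls. It fell by 0.86 on the log2 scale under low P (1.81-fold, adjusted p = 0.00621) and was 0.60 higher under low N (1.52-fold, adjusted p = 0.0424). With spike-in scaling the low P change was -0.34 (adjusted p = 0.261). This low N call was lost with any of the 8 arrays left out and with the replicate number as a block (adjusted p = 0.0694). Under low T the levels were 0.01, 0.26, 0.08 and -0.40 against -0.43, -0.41, -0.39 and -0.54 (0.43, adjusted p = 0.0679, or 0.0389 when slides were entered as a block). The difference between stresses passed the test, by -1.29 between low P and low T (adjusted p = 0.000178) and by -1.46 between low P and low N (adjusted p = 0.000155). The other H-protein, GRMZM2G399183, fell under low P (-0.89, adjusted p = 0.0111), with changes of -0.30 under low T and -0.40 under low N (adjusted p = 0.552 and 0.092). Its low P fall did not pass the test with normexp (adjusted p = 0.0855) or with spike-in scaling (-0.37, adjusted p = 0.162). The T-protein GRMZM2G107665 did not pass the test under any stress (-0.27 under low T, -0.21 under low N and -0.10 under low P).

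Serine hydroxymethyltransferase joins the methylene group released from glycine to a second glycine to form serine. The 4 transcripts listed moved apart under low T. GRMZM2G078143, a mitochondrial precursor with the synonym glycine1, had low T levels of 3.02, 3.24, 2.88 and 2.97 against 1.77, 1.84, 1.44 and 1.48 in control T. The groups were separated by more than their ranges, and the transcript rose 2.63-fold (1.40, 95% interval 1.06 to 1.73, adjusted p = 0.000565). The increase was 1.32 on the first slide and 1.47 on the second. Under low N it was level (1.83, 1.78, 1.68 and 1.86 against 1.87, 1.81, 1.65 and 1.82; log2 change 0.00, 95% interval -0.26 to 0.27). Under low P the levels of 1.41, 1.24, 1.66 and 1.45 overlapped those of the control (2.12, 2.14, 1.64 and 1.93), and the fall of 0.52 passed the test (adjusted p = 0.0202) but not without low P replicate 2, control P replicate 1 or control P replicate 2 (adjusted p of 0.0501 to 0.0575). The low P change minus the low T change was -1.91 (adjusted p = 1.47e-07) and minus the low N change -0.52 (adjusted p = 0.0476), and the low T change exceeded the low N change by 1.39 (adjusted p = 2.36e-05).

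GRMZM2G039238, the other mitochondrial precursor, fell under low T (-0.79, adjusted p = 0.0168), with low T levels of 3.18 to 3.55 and control levels of 3.79 to 4.54. It was also lower on every low N array (3.10 to 3.47 against 3.68 to 4.09) without passing the test (-0.52, adjusted p = 0.057), and its low P change was above that of low T by 0.62 (adjusted p = 0.0238). GRMZM2G135283 fell under low P (-0.73, adjusted p = 0.00407), and its low N change of -0.70 had an adjusted p of 0.0721, or of 0.0196 with the replicate number as a block. The low P fall of GRMZM2G135283 did not pass the test with normexp (adjusted p = 0.0613) or with spike-in scaling (-0.21, adjusted p = 0.393). The levels of GRMZM2G452630 were 3.44, 3.06, 4.39 and 4.25 under low T and 2.55, 2.52, 3.29 and 3.76 in control T. Both groups were higher on the second slide, and the low T arrays were above the controls of the same slide by 0.72 and 0.80. The log2 change of 0.76 had an adjusted p of 0.169 without a block, of 0.00495 when slides were entered as a block and of 0.0171 when replicate numbers were. Under low P its levels (2.80, 2.78, 2.59 and 2.97 against 3.16, 3.19, 3.34 and 2.84) changed by -0.35 (adjusted p = 0.0617), and the difference from low T was -1.10 (adjusted p = 0.0215). The nitrogen experiment gave overlapping levels for GRMZM2G452630, 2.88, 3.02, 2.82 and 2.85 under low N against 2.64, 2.78, 2.64 and 2.88 in control N (0.15, adjusted p = 0.455).

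Hydroxypyruvate reductase and glycerate kinase complete the pathway back to 3-phosphoglycerate. The reductase GRMZM2G074282 had levels of 2.50, 2.64, 2.72 and 2.36 under low P and of 3.07, 3.18, 3.40 and 2.80 in control P. The groups did not overlap and it fell 1.47-fold (-0.56, adjusted p = 0.0155), while with spike-in scaling the change was -0.04 (adjusted p = 0.882). Its changes under low T (-0.49) and low N (-0.39) did not pass the test (adjusted p = 0.184 and 0.0819). GRMZM2G074282 stood at 3.52, 3.09, 3.41 and 3.51 under low T against 3.54, 3.31, 4.26 and 4.37 in control T, where the controls of the second slide were high, and at 2.73, 2.78, 2.66 and 2.48 under low N against 3.16, 3.03, 3.08 and 2.94 in control N, without overlap. Glycerate kinase GRMZM2G018786 had low T levels of 4.17, 4.17, 4.27 and 4.48 against 4.75, 4.66, 4.94 and 4.77 in control T. All low T arrays were lower and it fell 1.42-fold (-0.51, adjusted p = 0.0171), which neither quantile normalization (-0.30, adjusted p = 0.162) nor spike-in scaling (-0.29, adjusted p = 0.174) left past the test. It changed by -0.43 under low N (adjusted p = 0.12) and by -0.34 under low P (adjusted p = 0.0755). The levels of GRMZM2G018786 were 4.30, 4.23, 4.69 and 4.76 under low N against 5.03, 4.88, 4.92 and 4.86 in control N, without overlap, and 4.21, 4.13, 4.25 and 4.27 under low P against 4.25, 4.61, 4.88 and 4.47 in control P, with the control array of replicate 1 among the low P arrays.

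Phosphoglycerate dehydrogenase catalyses the first step of the phosphorylated route to serine. Of its 4 transcripts, GRMZM2G009323 and GRMZM2G081886 rose under low T, GRMZM2G098423 under low T and low N, and GRMZM2G073814 under low P. GRMZM2G073814 had levels of 2.98, 3.36, 2.55 and 2.99 under low P and of 0.84, 1.11, 0.44 and 0.94 in control P. All low P arrays were far above the controls, and the transcript rose 4.40-fold (2.14, 95% interval 1.68 to 2.59, adjusted p = 0.000144). It was the only member called higher under low P, and with spike-in scaling its change was 2.65. Its low T arrays were uniform (1.97, 2.12, 2.10 and 1.63), whereas the control T arrays split by slide, with 3.33 and 3.49 on the first and 1.47 and 0.79 on the second. The low T change was therefore -1.36 on the first slide and 0.73 on the second, and -0.32 over both (adjusted p = 0.707). Under low N it changed by 0.28 (0.68, 0.57, 1.46 and 1.24 against 0.52, 0.72, 0.81 and 0.78; adjusted p = 0.449). The low P change exceeded that of low T by 2.45 (adjusted p = 0.00226) and that of low N by 1.86 (adjusted p = 0.0283).

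GRMZM2G098423 had low N levels of 2.00, 1.85, 1.51 and 0.73 and control N levels of 0.66, 0.29, -0.97 and -0.61. The lowest low N array was just above the highest control, and it rose 3.21-fold (1.68, 95% interval 0.73 to 2.63, adjusted p = 0.0372). On the 1 slide that held arrays of both groups, 2 of low N and 1 of control N, the difference was 2.10, and the call was lost in 6 of 8 omissions of 1 array (adjusted p up to 0.1). Under low T the levels were 3.52, 3.60, 3.50 and 3.57 against 2.87, 2.76, 3.14 and 2.84. These did not overlap and it rose 1.57-fold (0.65, adjusted p = 0.00581). Under low P its levels of 0.66, 0.77, 1.40 and 1.00 lay above those of the control (0.25, 0.55, 0.64 and -0.25), with a change of 0.66 (adjusted p = 0.0519). This low P change passed the test with quantile normalization (adjusted p = 0.0435), with spike-in scaling (1.17, adjusted p = 0.00366) and over the probes well above background on all 24 arrays (adjusted p = 0.0309). It stayed short of the test with normexp (adjusted p = 0.0818) and in 1 fit over all 24 arrays (adjusted p = 0.114). The same 2 settings took the low T call away (adjusted p = 0.0669 and 0.0954). The low N call was also lost without a filter on dim probes (adjusted p = 0.0689). The change was thus positive under all 3 stresses and, in the main setting, past the test under 2. No interaction of this transcript passed the test (adjusted p of 0.0895 to 0.987).

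GRMZM2G081886 had low T levels of 1.46, 1.75, 1.82 and 1.65 against 0.70, 0.63, 0.79 and 0.74 in control T. The low T arrays were all higher and it rose 1.94-fold (0.96, 95% interval 0.68 to 1.24, adjusted p = 0.0012). Under low P its levels (0.92, 1.10, 0.67 and 1.07) were mostly below those of the control (1.58, 1.48, 0.93 and 1.27) with a change of -0.38 (adjusted p = 0.0977), and under low N (1.47, 1.46, 1.41 and 1.15 against 0.84, 1.21, 0.88 and 0.79) mostly above, with 0.44 (adjusted p = 0.0928). The low P change lay below that of low T by 1.33 (adjusted p = 2.67e-05) and below that of low N by 0.82 (adjusted p = 0.00616). GRMZM2G009323 rose under low T (0.70, adjusted p = 0.0063) and changed by 0.32 under low N and -0.10 under low P (adjusted p = 0.185 and 0.621). Its levels resembled those of GRMZM2G081886 over the 24 arrays (r = 0.782, and 0.684 for deviations from group means), which again is a description only.

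**Figure D3:**
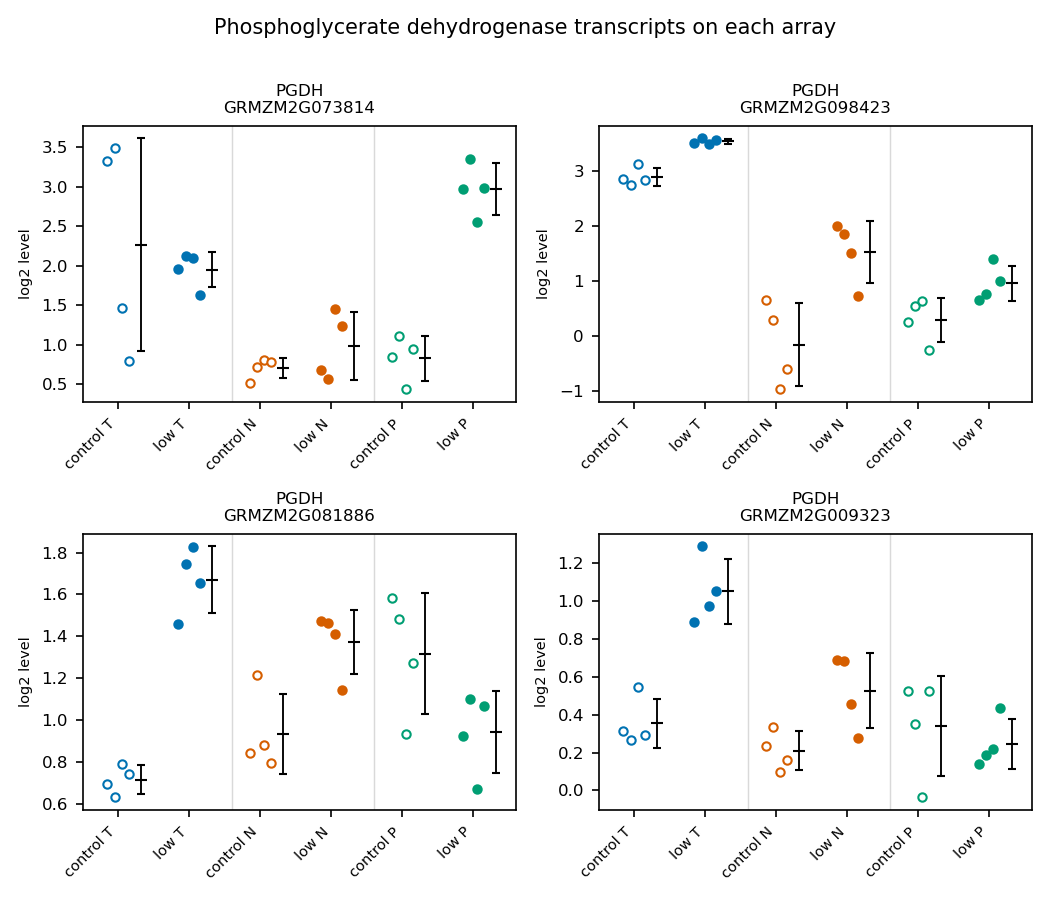
Level of the 4 phosphoglycerate dehydrogenase transcripts (log2 intensity minus the 75th percentile of the array, y axis; the range differs between panels) on every array of the 6 groups (x axis; open circles control, filled circles stressed), with the mean and SD beside the points. GRMZM2G073814 is high on all 4 low P arrays (2.55 to 3.36) and splits within control T (0.79 to 3.49), and GRMZM2G098423 lies between 2.76 and 3.60 in the temperature experiment and at most at 2.00 in the others.

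Phosphoserine aminotransferase and phosphoserine phosphatase finish the phosphorylated route. The aminotransferase GRMZM2G300801 (psat1) had low P levels of 2.64, 2.62, 2.56 and 2.57 against 1.95, 2.22, 2.15 and 2.21 in control P. The groups did not overlap, and it rose 1.38-fold (0.46, adjusted p = 0.00345), although in 1 fit over all 24 arrays, with a common spread, the adjusted p was 0.12. Its changes under low T and low N were -0.03 and 0.16 (adjusted p = 0.925 and 0.753), and in both experiments stressed and control arrays alike differed between replicates 1 and 2 and replicates 3 and 4. GRMZM2G300801 had levels of 2.18, 2.21, 1.94 and 1.97 under low T against 2.44, 2.51, 1.75 and 1.73 in control T, and of 1.88, 1.92, 2.90 and 2.68 under low N against 1.99, 1.89, 2.57 and 2.29 in control N. The phosphatase GRMZM2G165383 changed least. Its levels were 2.32, 2.60, 2.23 and 2.29 under low T against 2.51, 2.43, 2.32 and 2.44 in the control, and the changes were -0.06, -0.06 and 0.00 under low T, low N and low P. The 95% intervals reached from -0.35 to 0.22, from -0.41 to 0.28 and from -0.25 to 0.25. In the nutrient experiments GRMZM2G165383 had 2.24, 2.36, 2.58 and 2.62 under low N against 2.28, 2.47, 2.56 and 2.72 in control N, and 3.06, 3.08, 2.85 and 2.99 under low P against 3.03, 3.01, 2.75 and 3.18 in control P, with overlap in both.

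Serine acetyltransferase transfers an acetyl group to serine and gives O-acetylserine, the carbon skeleton that takes up sulfide to form cysteine. The strongest changes of all members lay at this step. GRMZM2G013430, with the synonym sat2, had low T levels of -0.44, -0.90, -1.56 and -0.83 and control T levels of 3.32, 3.16, 3.59 and 4.01. In the low N experiment the levels were -1.02, -1.05, -1.08 and -1.48 against 2.46, 2.01, 2.24 and 2.11. All stressed arrays were lower than all controls by over 3 units on the log2 scale in both experiments. The transcript fell 21.9-fold under low T (-4.45, 95% interval -5.08 to -3.83, adjusted p = 8.94e-05) and 10.3-fold under low N (-3.36, -3.73 to -2.99, adjusted p = 7.89e-05). The fall was 3.91 and 5.00 on the low T slides and 3.52 on the shared low N slide, and the probe was well above background on all 24 arrays. Under low P the levels of 3.86, 3.83, 3.30 and 3.73 overlapped those of the control (3.91, 3.95, 4.20 and 3.04), and the change was -0.10 (95% interval -0.68 to 0.49, adjusted p = 0.786).

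GRMZM2G069203, sat1, went the same way to a lesser extent. Its levels were 4.87, 3.61, 4.44 and 4.36 under low T against 6.66, 6.65, 6.46 and 6.47 in control T, and 4.55, 4.62, 5.20 and 4.98 under low N against 5.87, 6.08, 5.86 and 6.47 in control N. Again no stressed array reached a control array. It fell 4.74-fold under low T (-2.24, 95% interval -2.81 to -1.67, adjusted p = 0.000703) and 2.35-fold under low N (-1.23, -1.70 to -0.76, adjusted p = 0.00943). With spike-in scaling the low N change was -0.66 and did not pass the test (adjusted p = 0.184), and a random block for slides gave -0.99, just under 2-fold. Under low P the levels of 6.43, 6.49, 6.30 and 6.44 overlapped those of the control (6.43, 6.47, 6.40 and 6.24), with a change of 0.03 (95% interval -0.17 to 0.22).

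GRMZM2G331782 fell under low T alone. Its levels there were 2.66, 2.58 and 2.47 on 3 arrays, the spot of low T replicate 4 being left out because of its outlier flag, against 3.36, 3.54, 3.62 and 3.96 in control T. The arrays did not overlap and the fall was 2.07-fold (-1.05, 95% interval -1.46 to -0.65, adjusted p = 0.0044), while with the replicate number as a block the change was -0.94, under the limit of 2-fold. Under low N it changed by 0.17 (3.62, 3.70, 4.21 and 3.92 against 3.51, 3.58, 3.95 and 3.71; adjusted p = 0.565) and under low P by -0.04 (3.68, 3.93, 3.76 and 3.78 against 3.70, 3.87, 4.02 and 3.73; adjusted p = 0.761). The last member of the step, GRMZM2G048740, did not pass the test under any stress, with changes of -0.48 under low T, 0.15 under low N and -0.45 under low P (adjusted p = 0.156, 0.716 and 0.0807).

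Between stresses the acetyltransferases differed in amount. The change of GRMZM2G013430 was 4.36 higher under low P than under low T (adjusted p = 2.72e-08) and 3.27 higher than under low N (adjusted p = 3.42e-06), and low T lay below low N by 1.09 (adjusted p = 0.0282). For GRMZM2G069203 the corresponding differences were 2.27, 1.26 and 1.01 (adjusted p = 3.26e-06, 0.00326 and 0.013). For GRMZM2G331782 low T lay below low P by 1.01 (adjusted p = 0.000903) and below low N by 1.23 (adjusted p = 0.000419). Over the 24 arrays sat1 and sat2 levels had r = 0.926, but their deviations from the group means had r = 0.0426, so that the likeness came from the groups and not from single arrays.

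**Figure D4:**
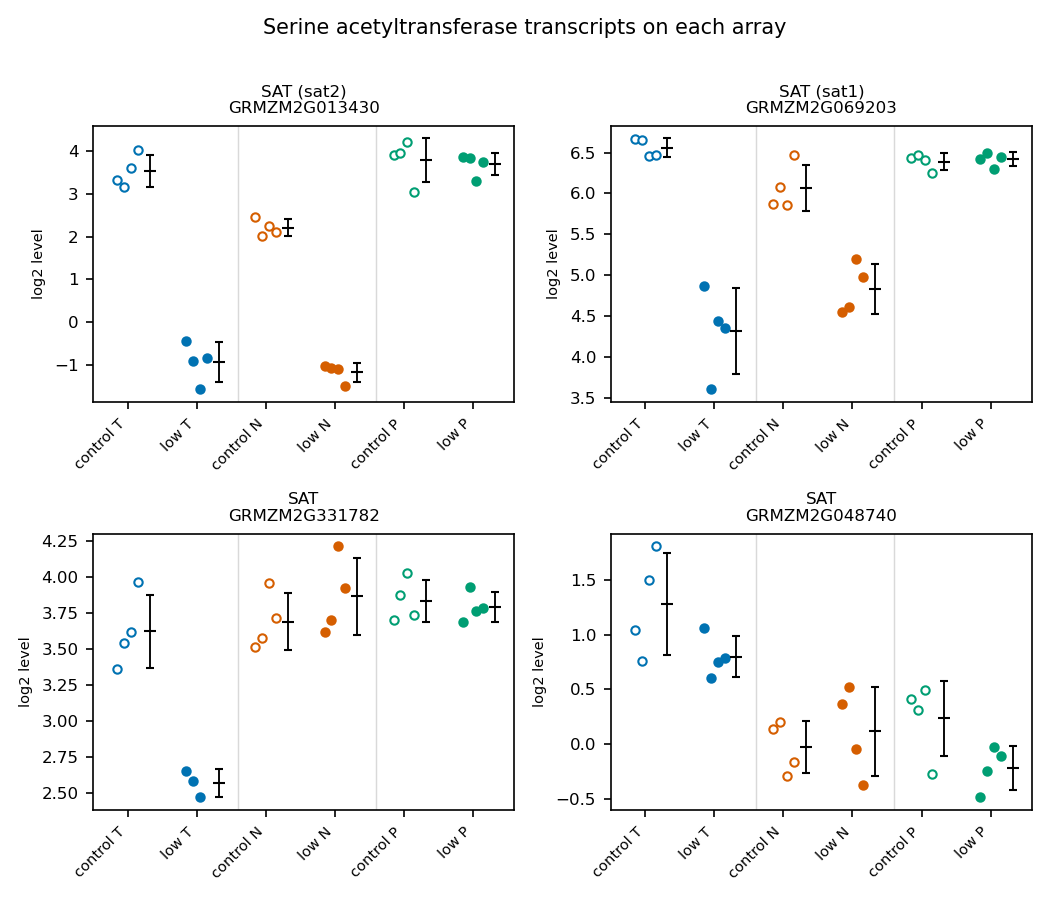
Level of the 4 serine acetyltransferase transcripts (log2 intensity minus the 75th percentile of the array, y axis; the range differs between panels) on every array of the 6 groups (x axis; open circles control, filled circles stressed), with the mean and SD beside the points. GRMZM2G013430 lies between -1.56 and -0.44 under low T and low N and between 2.01 and 4.20 in all other groups, and GRMZM2G331782 is low under low T only, where 3 arrays are shown.

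The last 3 members are annotated as cystathionine beta-synthase and related enzymes, a family that also holds the cysteine synthases which join O-acetylserine and sulfide. GRMZM2G082185, with the synonym cys1, fell under low T (-0.48, adjusted p = 0.0436) and low N (-0.58, adjusted p = 0.0276), without overlap in either (4.85 to 5.05 against 5.15 to 5.71, and 4.18 to 4.41 against 4.68 to 5.03). The low T call was lost in 7 and the low N call in 6 of 8 omissions of 1 array. With spike-in scaling its low N change was -0.0048. Under low P it changed by 0.16 (adjusted p = 0.297), a difference of 0.63 from low T and of 0.74 from low N (adjusted p = 0.00745 and 0.00556). GRMZM2G104237 had low P levels of -0.16, -0.04, 0.06 and -0.11 against 0.88, 0.87, 1.02 and 0.66 in control P. No arrays overlapped and it fell 1.89-fold (-0.92, 95% interval -1.14 to -0.69, adjusted p = 0.000291). The transcript did not pass the test under low P with spike-in scaling (-0.40, adjusted p = 0.115). It was lower by 0.45 under low T and under low N without passing the test (adjusted p = 0.113 and 0.121), or, with slides as a block, past it under low T (adjusted p = 0.0202) and, as a random block, under low N (-0.52, adjusted p = 0.0401). Here GRMZM2G104237 had -0.02, 0.20, 0.26 and 0.43 under low T against 0.47, 0.29, 0.88 and 1.04 in control T, which overlapped, and 0.89, 0.94, 0.30 and 0.64 under low N against 1.22, 1.09, 1.04 and 1.21 in control N, which did not. GRMZM2G036708 passed under no stress (0.37, -0.48 and -0.20 under low T, low N and low P, adjusted p = 0.0504, 0.197 and 0.341), although with the slide as a block its low T change did (adjusted p = 0.0294), as it did with quantile normalization, with spike-in scaling and over the probes well above background on all 24 arrays (adjusted p of 0.0215 to 0.0373), and its low T and low N changes differed by 0.84 (adjusted p = 0.0163).

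Tested as interactions in 1 fit over all 24 arrays, the change of 14 members differed between low P and low T, of 11 between low P and low N, and of 6 between low T and low N. Among all tested transcripts 38.9%, 19.9% and 22.4% differed in these comparisons. Relative to low T the low P change was higher for 7 members and lower for 7 (21% and 17.9% of all tested), and relative to low N higher for 4 and lower for 7 (11.3% and 8.59%). The low T change was higher than that of low N for 3 members and lower for 3 (11.4% and 11%). With spike-in scaling the member counts were 8, 3 and 3.

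Neighbouring pathways of the study's annotation were set beside the members by counts. Over all tested transcripts 15.2% rose and 15.8% fell under low T, 5.34% and 5.82% under low N, and 20.9% and 20.2% under low P. Of 27 tested Calvin cycle transcripts, which receive the glycerate of photorespiration, 1 rose and 1 fell under low T (3.7% each). Under low N 0 rose and 3 fell (11.1%). Under low P 2 rose and 7 fell (7.41% and 25.9%), with a median log2 change of -0.22. Of 18 C4 shuttle transcripts 4 fell under low T (22.2%), 7 under low N (38.9%) and 7 under low P (38.9%), while 2 rose under low P (11.1%). The shuttle's median was -0.44 under low N. Of 7 transcripts of the glutamine synthetase and glutamate synthase cycle, which takes up the ammonium set free by glycine decarboxylase, 3 rose (42.9%) and 0 fell under low T. Under low N 1 rose and 1 fell (14.3% each), and under low P 1 rose and 3 fell (14.3% and 42.9%). Photosystem transcripts moved as well, 7 of 15 of photosystem I (46.7%) and 8 of 11 of photosystem II (72.7%) being lower under low T. Under low P 5 of 11 of photosystem II were higher (45.5%). Of the 5 senescence markers 2 rose and 1 fell under low T (40% and 20%), 1 rose under low N (20%) and 2 rose under low P (40%). Whether leaf ageing had a part in the changes of the members was not tested.

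**Figure D5:**
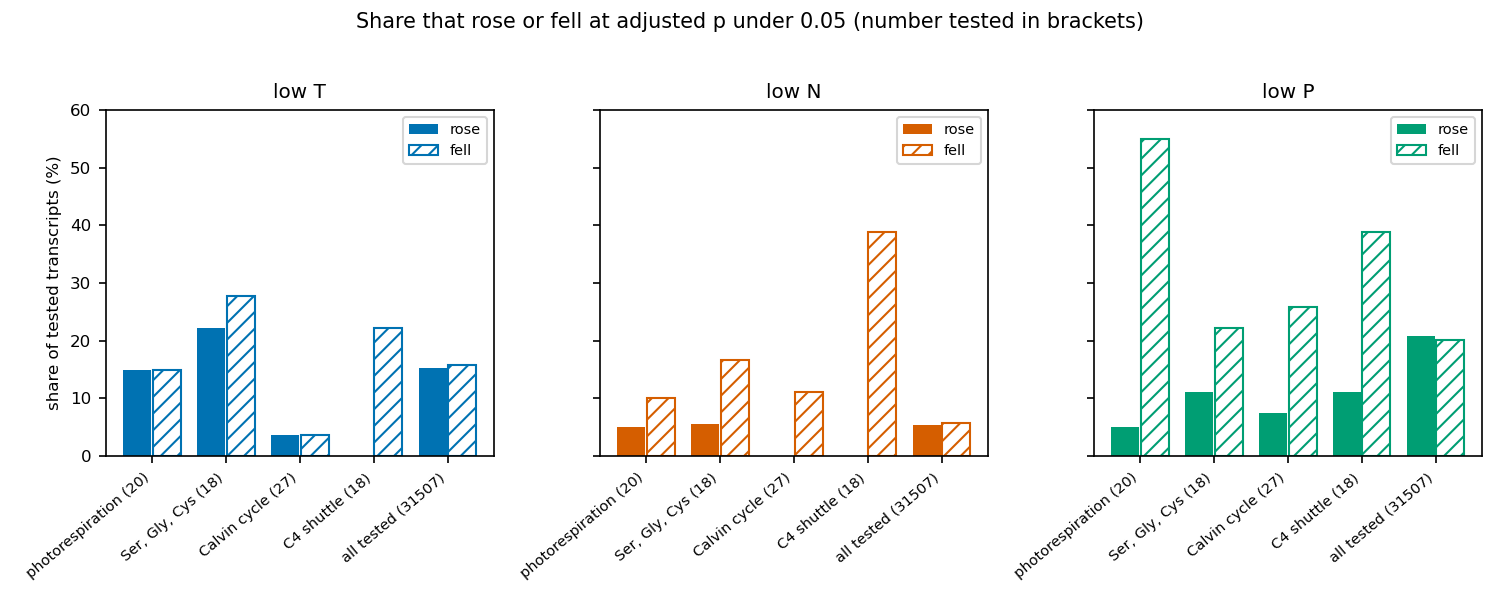
Share of tested transcripts (%, y axis, from 0) that rose (solid) or fell (hatched) at an adjusted p under 0.05 under each stress, for photorespiration, serine, glycine and cysteine metabolism, the Calvin cycle, the C4 shuttle and all tested transcripts (x axis, number tested in brackets). Under low P 55% of the photorespiratory transcripts fell against 20.2% of all, but with spike-in scaling 10% fell and the median of the list turned from -0.47 to 0.05.

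The control leaves themselves differed between the experiments. Set as the mean of control N and control P against control T, 14 members differed, 4 higher and 10 lower at day 30, where 49% of all tested transcripts differed, 24.4% higher and 24.6% lower. The phosphoglycerate dehydrogenase GRMZM2G098423 was 7.11-fold lower at day 30 (-2.83, 95% interval -3.46 to -2.20, adjusted p = 3.31e-05), the acetyltransferase GRMZM2G048740 was 2.26-fold lower (-1.18, adjusted p = 0.00101), and the dehydrogenase GRMZM2G073814 was 2.83-fold lower (-1.50, adjusted p = 0.0157) with the control T arrays divided by slide. Among photorespiratory members hydroxypyruvate reductase GRMZM2G074282 (-0.79, adjusted p = 0.00709), phosphoglycolate phosphatase GRMZM2G018441 (-0.61, adjusted p = 0.00252) and the H-protein GRMZM2G399183 (-0.74, adjusted p = 0.0189) were lower at day 30, and the H-protein GRMZM2G010321 was higher (0.48, adjusted p = 0.00245). For GRMZM2G098423 the low N and low P leaves, at 0.66 to 2.00, thus stayed below every leaf of the temperature experiment, and the control against which each increase was measured was not the same. Leaf position, age, chamber and slide cannot be told apart in this comparison.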

How the data were processed

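RNA of 24 leaf samples, labelled with Cy3, was hybridised to custom 1-colour Agilent maize arrays of 41780 transcript probes. The spot intensity values were made by the authors with Agilent Feature Extraction (11.7.1 in the submitters' processing notes, 11.0.1.1 in the file headers), which subtracted the background without scaling between arrays. The deposited table of log2 values had been scaled by the authors to the 75th percentile and corrected to a baseline across all samples. Up to a constant for each probe and a constant for each array it equalled the log2 intensities used here. It served as an alternative, with which 11 members fell under low P in place of 12.

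From the processed intensities, log2 was taken and the 75th percentile of each array over transcript probes subtracted, and flagged outlier spots were omitted. Of the probes, 31507 exceeded background clearly on the 4 arrays of at least 1 group and were tested in R 4.3.3 with limma 3.58.1 (lmFit, eBayes) on the 8 arrays of each experiment, with Benjamini-Hochberg adjustment over all of them. Differences between stresses were contrasts in 1 fit over the 6 groups. Intervals are 95% confidence intervals of a difference between group means, computed from the spread between arrays, whose number limits the precision. The fit was tested on simulated data with independent noise on each array. These held no effect of slides or growth sets, so that the simulation cannot speak to such effects.

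The authors' fold changes and significance marks were not used; the annotation gave identifiers, descriptions and headings only. The members, the pathway lists and the rule for the transcripts given array by array were chosen with earlier results of these data known. That rule took 19 members: those with a fold change over 2 and an adjusted p under 0.05 under any stress, those whose change differed between stresses by over 1 on the log2 scale at an adjusted p under 0.05, and the member of lowest adjusted p in each enzyme step with neither. Names come from the annotation or from synonyms in RefSeq (build Zm-B73-REFERENCE-NAM-5.0), where 24 loci had 1 match, 2 had 2 and 7 had none. Sequences and positions were not analysed here, so that binding of a probe to a related transcript was not tested.

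The main fits held no block. Replicate numbers could pair the samples of the low T and low N experiments, where same-numbered arrays deviated together (correlation of deviations 0.189 to 0.424 and 0.175 to 0.362) and where plants had been grown in successive sets, but not in the low P experiment (-0.104 to 0.0452). Alternatives were normexp background correction (offset 50), quantile normalization, scaling to 7 of 10 spike-in probes, other filters, slide and replicate blocks, 1 fit over 24 arrays, a limit of 1.5-fold and each array left out. Normexp was run on the median spot signal in place of the mean signal.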

Additional observations from a re-analysis of the deposited data

Results flagged for a closer look

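Of 197 groups of 4 arrays examined, 4 held 1 array far from the others, a distance that chance gives in about 1 group in 20. Glycolate oxidase-like GRMZM2G356897 was at 0.71 on control P replicate 4 (median of the others 1.00), catalase GRMZM2G088212 at 1.02 on control N replicate 3 (1.21), serine acetyltransferase GRMZM2G013430 at -1.48 on low N replicate 4 (-1.05), and GRMZM2G036708, related to cystathionine beta-synthase, at 2.18 on low P replicate 4 (2.38).

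In 31 cases the log2 change differed between stresses by the interaction test in limma (adjusted p under 0.05). Low P against low N gave -0.79 for phosphoglycolate phosphatase GRMZM2G018441 and -0.46 for GRMZM2G356897. Catalase GRMZM2G088212 gave 0.90 for low T against low N, and catalase GRMZM2G090568 gave 0.84 for low P against low T. The aminotransferases gave, for low P against low T and then low N, -1.50 and -1.21 (GRMZM2G137868) and -1.63 and -1.14 (GRMZM2G050481), and H-protein GRMZM2G010321 gave -1.29 and -1.46.

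Among serine hydroxymethyltransferases, low P against low T gave 0.62 for GRMZM2G039238, -1.10 for GRMZM2G452630 and -1.91 for GRMZM2G078143, for which low P against low N gave -0.52 and low T against low N 1.39. Among phosphoglycerate dehydrogenases, low P against low T gave -0.79 for GRMZM2G009323, 2.45 for GRMZM2G073814 and -1.33 for GRMZM2G081886, and low P against low N gave 1.86 for GRMZM2G073814 and -0.82 for GRMZM2G081886.

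For serine acetyltransferases, low P against low T gave 2.27 (GRMZM2G069203), 1.01 (GRMZM2G331782) and 4.36 (GRMZM2G013430). Low P against low N gave 1.26 for GRMZM2G069203 and 3.27 for GRMZM2G013430, and low T against low N gave -1.01, -1.23 and -1.09 for GRMZM2G069203, GRMZM2G331782 and GRMZM2G013430. GRMZM2G036708 gave 0.84 for low T against low N, and GRMZM2G082185 gave 0.63 and 0.74 for low P against low T and low N.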

How the results depend on the processing

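Of 1647 values of single members under the alternatives, 1492 stayed on their side of the threshold, 109 lost and 45 gained an adjusted p under 0.05, and 1 reversed, that of catalase GRMZM2G088212 under low P (-0.27, but 0.24 with spike-in scaling, adjusted p = 0.379). Among the 1492 were 77 of opposite sign that passed the test in neither setting. Normexp left 1 member that rose and 4 that fell under low T, 8 that fell under low N and 6 under low P, 6 and 3 that differed between low P and low N and between low T and low N, and 5 between the controls. Quantile normalization left 4 that fell under low T and 3 under low N. Spike-in scaling left 1 that fell under low N, 6 that rose and 2 that fell under low P, and 8, 3 and 3 that differed between low P and low T, low P and low N, and low T and low N. Without a filter on dim probes 0 rose, 2 fell and 2 were called under low N. With slides as a random block 9 fell and 2 were called under low N, and 1 fit over all 24 arrays gave 10 that fell. A limit of 1.5-fold gave 9 called under low T and 10 under low P. With the replicate number as a block, 1 member rose and 6 fell under low N, 7 rose and 7 fell under low T, and 2 rose and 10 fell under low P, where the numbers do not pair the samples. Leaving out 1 array at a time gave 5 to 6 that rose, 6 to 7 that fell and 4 to 6 called under low T, 0 to 1, 2 to 4 and 2 to 3 under low N, and 3 to 4, 10 to 13 and 3 to 5 under low P. The number that fell under low N dropped to 2 without low N replicate 1, control N replicate 1 or control N replicate 4, and to 3 without low N replicate 3 or control N replicate 2, and 5 were called under low P without low P replicate 3. The differences between stresses ranged over 12 to 15 (low P and low T), 7 to 11 (low P and low N) and 5 to 8 (low T and low N), and between the controls over 10 to 14. Why these counts moved was not tested. The dimmest member, GRMZM2G129246, was not well above background on 1 array, which limits its values.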
